A study of Mus musculus with 8 samples.

Results

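The proteasome genes of the mouse heart were followed by RNA sequencing. All protein-coding genes whose GENCODE M21 symbol begins with Psm, a letter from a to g and a digit were taken, which gave 50 genes among the 141239 features in the count tables. All 50 had an entry in the tables, and 48 passed the filter on low counts. Psmg2, an assembly chaperone of the core, is listed at 0 counts in all 8 libraries, but reads that overlap more than 1 feature count for none, and overlaps with noncoding genes of the NONCODE catalogue were not checked, so this 0 is no measure of its expression. Psmb11, a catalytic subunit of the thymus, had 0 to 5 counts per library. The other members were 14 subunits of the constitutive core, 17 of the regulatory particle, 5 immune genes (Psmb8, Psmb9, Psmb10, Psme1, Psme2), 3 chaperones each of the core and the regulatory particle, 3 further activators or inhibitors, the testis core subunit Psma8, Psme2b, and Psmc3ip. Psmc3ip matches by name only. It encodes a partner of the meiotic recombinases and is no proteasome subunit.

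The hearts came from mice aged 2 weeks, all labelled as knockouts of Lmna, which encodes lamin A and lamin C of the nuclear envelope, on a strain given as Mixed. Wild-type hearts and hearts given an empty vector were not analysed here, and the sources used here do not give sex, litter, vector dose or the promoter in the vector. In the untreated group (labelled Lmna-/-, replicates 6, 7 and 8) the labels name no vector. In the other group (labelled Lmna-/-:AAV9 Lmna WT, replicates 1 to 5, called AAV9-LMNA below) wild-type Lmna was, by the label, given with AAV9, an adeno-associated virus that reaches heart muscle. The labels do not name the form of lamin that the vector encodes, and no lamin protein was measured here. The comparison addresses how RNA levels differ between knockout hearts with and without this vector. The vector and its Lmna cargo cannot be told apart as sources of a difference.

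The proteasome is the large protease that destroys proteins tagged with ubiquitin. Its core is a barrel of 4 stacked rings, the outer 2 built from alpha subunits, which gate the entrance, and the inner 2 from beta subunits, 3 kinds of which cut the substrate. The regulatory particle caps the barrel. Its base holds a ring of ATPases that unfold the substrate, and its lid removes the ubiquitin. Interferon induces 3 other cutting subunits, Psmb8, Psmb9 and Psmb10, which take the places of Psmb5, Psmb6 and Psmb7 in newly built cores, together with the activator PA28 (Psme1 and Psme2). The resulting immunoproteasome is most abundant in immune cells and makes peptides suited to MHC class I molecules. In heart muscle the proteasome turns over sarcomere and other proteins.

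Each library held 21439956 to 26492443 counts on features. Lmna checked the labels: it stood at 32.3 to 68.7 CPM (counts scaled to a common library size) in the untreated and at 227 to 747 CPM in the AAV9-LMNA libraries. Markers of heart muscle fitted the labelled tissue, with 8 genes summing to 53921 to 79618 CPM. The untreated libraries differed among themselves and from the others in where their reads fell. Reads outside every feature made up 24.7% in untreated replicate 6, 16.8% in replicate 7 and 18.4% in replicate 8, and 12.1 to 12.8% in the AAV9-LMNA libraries. The mean correlation of untreated replicate 7 across genes was 0.978 with the treated libraries and 0.965 with its own group. Long transcripts were over-represented in the untreated libraries, with slopes of 0.0724 to 0.131 log2 units for each doubling of transcript length, against -0.0883 to -0.0551 in the AAV9-LMNA libraries. Proteasome transcripts were short, with a median of 1435 bases against 3062 over 13785 coding genes tested, so 3 readings are given for the members below: scaling over all features, scaling over Ensembl genes alone, and a correction, library by library, for the length and GC content of transcripts.

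In the fit over all features, 25 of the 48 members rose and 1 fell in the AAV9-LMNA hearts, where a gene is said to rise or fall at a Benjamini-Hochberg adjusted p under 0.05 in edgeR's quasi-likelihood test. Over all coding genes tested, 18.4% rose and 6.07% fell. The members' median log2 fold change was 0.37, and that of all coding genes 0.21. With Ensembl genes alone the coding median lay at 0.02. There 8 members rose and 1 fell, with a median of 0.18, against 4.49% and 8.73% of coding genes. With the length and GC correction only Psmb8 rose and only Psmd11 fell (adjusted p = 0.0343 and 0.0111, edgeR), the median was 0.02, and 2.34% of coding genes rose and 5.25% fell. Against untreated replicate 7 alone, with replicates 6 and 8 left out, 6 members rose and 1 fell, against 7.42% and 3.85% of coding genes. The number of members that rose thus differed between the 3 readings, which also differ in the features tested (26717, 15256 and 15248), while Psmd11, a lid subunit, fell in all 3.

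**Figure D1:**
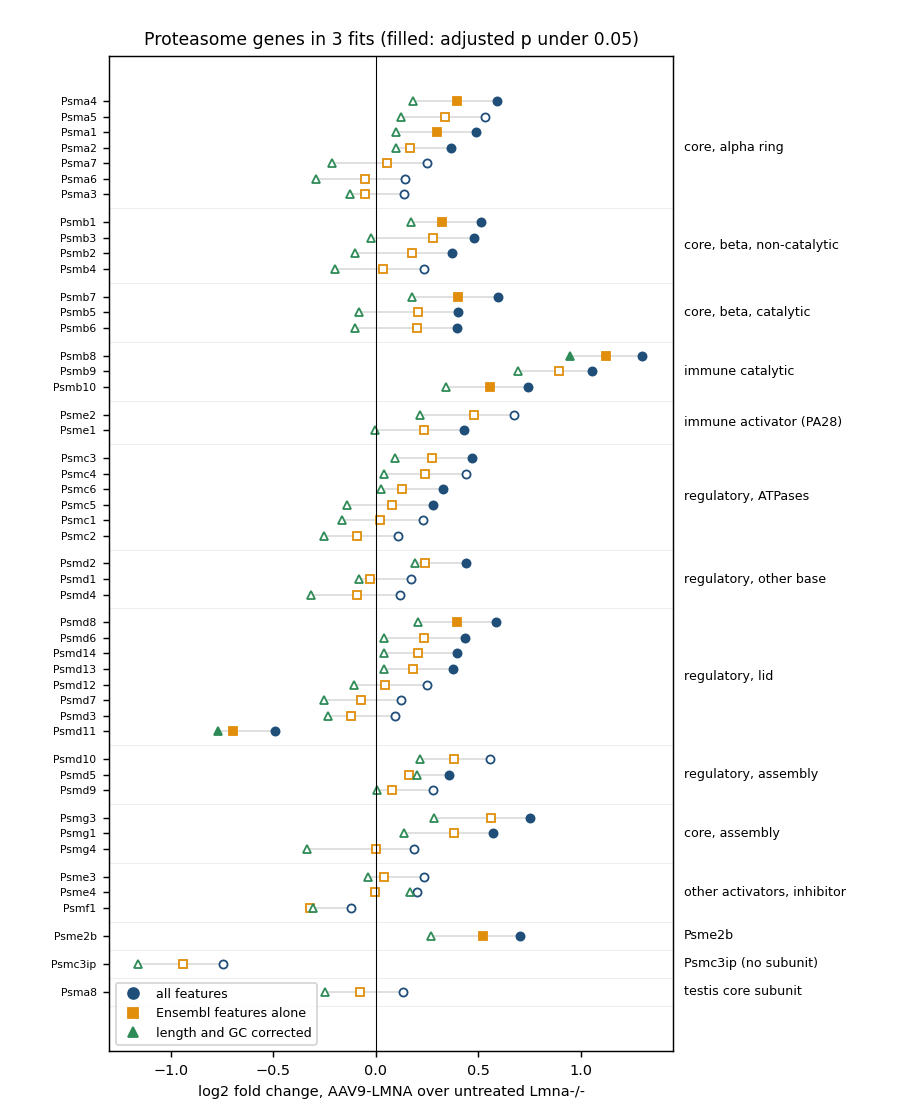
Log2 fold change of the 48 members tested, AAV9-LMNA over untreated Lmna-/-, grouped by role. Circles stand for scaling over all features, squares for Ensembl genes alone and triangles for the length and GC correction, filled where the edgeR adjusted p is under 0.05. From circles to triangles the filled symbols go from 25 rising and 1 falling member to Psmb8 and Psmd11.

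The groups were also compared by their levels alone, without a test. With scaling over all features every AAV9-LMNA library lay above every untreated one for 32 of the 48 members and below for 1, against 23.1% and 6.61% of coding genes. With scaling over Ensembl genes the numbers were 20 and 1, against 10.7% and 11.7%. The median member of the core, the regulatory particle and the immune set was compared library by library on both scales. Over all features the core ran from -0.31 to -0.14 log2 units around its mean in the untreated libraries and from 0.12 to 0.19 in the AAV9-LMNA libraries. With Ensembl scaling the regulatory particle no longer separated the groups, since untreated replicate 6 lay highest of the 8 at 0.13. The core still did on that scale, at -0.066, -0.10 and -0.19 in untreated replicates 6, 7 and 8 against 0.053 to 0.12. So did the immune set, at -0.67, -0.28 and -0.17 against 0.16 to 0.31.

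**Figure D2:**
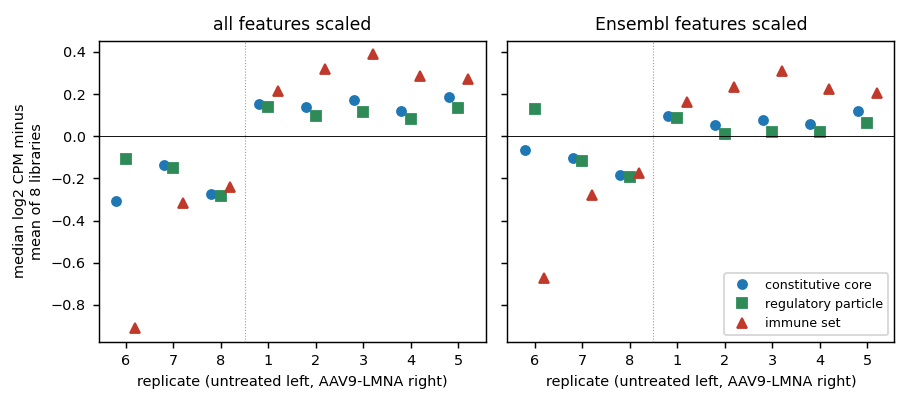
Median log2 CPM of the constitutive core (circles), the regulatory particle (squares) and the immune set (triangles) in each library, relative to each gene's mean over the 8 libraries, with scaling over all features (left) or Ensembl genes (right). Triangles lie below 0 in all 3 untreated and above 0 in all 5 AAV9-LMNA libraries on both scales, and on the right the square of untreated replicate 6 is the highest of its kind, at 0.13.

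The bases before the transcription start are shown for the cutting subunits with an entry, because Psmb8 was the one member that rose in all 3 readings and Psmb5 and Psmb6 are the subunits it and Psmb9 replace, and for Psmd11, the one that fell. They come from RefSeq on GRCm38.p6, with entries for 42 members (Psmb7 is not among them), and run 5′ to 3′. Capitals mark matches, on either strand, to 4 motifs: the core of the antioxidant response element TGACNNNGC, the interferon-stimulated response element (GAAA, any 2 bases, GAAA), the gamma-activated sequence TTCNNNGAA and the CCAAT box. Stretches of annotated untranslated region were left out; for Psmb8 and Psmb9, whose windows lie wholly in untranslated exon sequence of longer transcripts, 30 bases around the match are given.
Psmb5, chr14:54618023-54618245, minus strand: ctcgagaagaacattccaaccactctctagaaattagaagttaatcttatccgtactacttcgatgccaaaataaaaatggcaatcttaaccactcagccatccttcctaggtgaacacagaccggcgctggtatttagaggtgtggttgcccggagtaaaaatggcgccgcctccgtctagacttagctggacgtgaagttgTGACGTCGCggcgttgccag
Psmb6, chr11:70525107-70525356, plus strand: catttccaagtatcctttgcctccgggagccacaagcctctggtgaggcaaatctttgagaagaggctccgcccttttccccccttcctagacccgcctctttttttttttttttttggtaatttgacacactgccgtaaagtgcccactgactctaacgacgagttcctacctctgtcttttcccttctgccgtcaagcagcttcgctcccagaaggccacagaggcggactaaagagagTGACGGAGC
Psmb8, chr17:34198087-34198116, plus strand: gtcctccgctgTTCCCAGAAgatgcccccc
Psmb9, chr17:34187331-34187360, minus strand: cctgcaccgcgcgcagccgctgATTGGaaa
Psmb10, chr8:105938445-105938642, minus strand: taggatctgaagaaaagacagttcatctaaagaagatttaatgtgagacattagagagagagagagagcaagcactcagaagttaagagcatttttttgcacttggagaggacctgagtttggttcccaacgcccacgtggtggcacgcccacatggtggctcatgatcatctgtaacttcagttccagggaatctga
Psmd11, chr11:80428365-80428614, plus strand: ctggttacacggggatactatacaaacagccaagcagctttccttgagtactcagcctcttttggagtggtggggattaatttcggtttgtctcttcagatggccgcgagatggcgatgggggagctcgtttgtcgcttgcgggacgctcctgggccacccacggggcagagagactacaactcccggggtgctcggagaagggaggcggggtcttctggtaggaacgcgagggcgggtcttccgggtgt

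The match of Psmb5 begins 47 bases before the start and that of Psmb6 9 bases before it, both to TGACNNNGC. The Psmb8 match to TTCNNNGAA begins 97 bases before the start, and the Psmb9 match to CCAAT 8 bases before it, on the other strand. The windows of Psmb10 and Psmd11 held no match to these letters. In 300 bases from 250 before to 50 after the start, TGACNNNGC was found for 6 of the 42 members and in 12.39% of 32851 promoters, the interferon-stimulated response element for 5 and in 3.443%, TTCNNNGAA for 3 and in 8.298%, and CCAAT for 15 and in 37.41%. The 5 members with the interferon-stimulated response element were Psmb3, Psmd4, Psmd9, Psme1 and Psmg4, of which only Psme1 is in the immune set. In Psme1 it lay just after the start. TTCNNNGAA was found for Psmb8, Psmd2 and Psmg1, of which only Psmb8 is an immune gene. Members were counted as genes with a match in any of their promoters, while the percentages are of promoters (32851 for 27025 genes). Counts and percentages are therefore not measured alike. A match describes these letters only. The RefSeq starts of Psmb9 and of Tap1, a subunit of the peptide transporter read in the opposite direction, lie 226 bases apart.

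Psmb8 and Psmb9 had the largest log2 fold changes of the 48 members, and Psmb10 the fourth largest after Psmg3. Psmb8 (chr17:34197721-34201454), the chymotrypsin-like immune subunit, had 2.09, 5.46 and 3.27 CPM in untreated replicates 6, 7 and 8, and 8.04, 9.21, 9.91, 8.85 and 8.24 CPM in AAV9-LMNA replicates 1 to 5. The groups did not overlap, and untreated replicate 7 lay closest to the treated hearts. These are 51 to 128 counts per untreated and 172 to 243 per AAV9-LMNA library. The mean went from 3.61 ± 1.71 (SD, n = 3) to 8.85 ± 0.757 CPM (SD, n = 5), a log2 fold change of 1.29 (SE 0.27, edgeR adjusted p = 0.00809). It was 1.12 with Ensembl genes alone (adjusted p = 0.0153, edgeR) and 0.95 with the length and GC correction (adjusted p = 0.0343). With that correction the call was lost when any 1 library other than untreated replicate 7 was left out (0.72 to 1.31 over the 8 fits, edgeR adjusted p from 0.00218 to 0.0923). Against untreated replicate 7 alone it was 0.71 without correction (adjusted p = 0.0524).

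Psmb9 (chr17:34181987-34187764), the immune partner of Psmb6, had 1.23, 4.69 and 2.91 CPM in the untreated and 6.4, 6.29, 6.02, 5.28 and 6.57 CPM in the AAV9-LMNA libraries. The order of the untreated libraries, replicate 6 lowest and 7 highest, was the same as for Psmb8. Psmb9 rose by a log2 fold change of 1.06 (SE 0.33, edgeR adjusted p = 0.0391). The call was lost with Ensembl genes alone (0.89, adjusted p = 0.0871, edgeR), with the length and GC correction (0.69, adjusted p = 0.173) and when any 1 library except untreated replicate 7 was left out (0.69 without replicate 6, 1.58 without replicate 7). Without untreated replicates 6 and 8 it was 0.39 (adjusted p = 0.319).

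Psmb10 (chr8:105935735-105938444), which replaces the trypsin-like Psmb7, was the most abundant of the 3. It had 25.8, 38.8 and 42.9 CPM in the untreated and 56.4, 61.1, 62.5, 59.8 and 59.2 CPM in the AAV9-LMNA libraries, again with no overlap. Its log2 fold change was 0.74 (SE 0.15, edgeR adjusted p = 0.00689) and 0.56 with Ensembl genes alone (adjusted p = 0.0177), and it rose with each library left out. With the length and GC correction it was 0.34 and no longer called (adjusted p = 0.0910, edgeR). Against untreated replicate 7 alone it was 0.64 without correction.

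The activator PA28 opens the gate of the core without ATP. Psme1 (chr14:55578123-55581529), its alpha subunit, had 41.4, 46.4 and 56.9 CPM in the untreated and 67.3, 64.6, 63.3, 63.7 and 65.5 CPM in the AAV9-LMNA libraries. It rose by 0.43 (SE 0.11, edgeR adjusted p = 0.0173), with values of 0.24 and -0.0068 in the Ensembl and the length and GC readings (adjusted p = 0.132 and 0.975, edgeR). Against untreated replicate 7 alone Psme1 differed by 0.50 without correction. Psme2, the beta subunit, had 1.15, 1.15 and 1.27 CPM against 1.87, 1.59, 2.42, 2.10 and 1.54 CPM, a difference of 0.67 that missed the threshold (adjusted p = 0.0666, edgeR; 0.0494 with DESeq2). The transcript of Psme2 shares 82.5% of its bases, at 97% identity or more, with Psme2b, an intronless copy on chromosome 11. Psme2b took far more reads, 14.8 to 27.2 CPM against 31.7 to 36.6 CPM, and rose by 0.70 (adjusted p = 0.0132, edgeR). How reads were split between the pair cannot be told from counts, so both values are uncertain.

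Among the constitutive cutting subunits, all 3 rose over all features and only Psmb7 kept its call with Ensembl genes alone. Of coding genes 18.4% and 4.49% rose in these fits. Psmb7 (chr2:38588036-38644087) had 55.9, 63.8 and 52.4 CPM in the untreated and 82.5, 89.1, 88.6, 85.3 and 88.4 CPM in the AAV9-LMNA libraries. Its log2 fold change was 0.60 (SE 0.09, edgeR adjusted p = 0.00327), 0.40 with Ensembl genes alone (adjusted p = 0.0152) and 0.18 with the length and GC correction (adjusted p = 0.252). Psmb6, the caspase-like subunit, had 142, 165 and 150 CPM against 192, 198, 205, 200 and 206 CPM. It rose by 0.39 (adjusted p = 0.00995, edgeR) and stood at -0.10 after the correction (adjusted p = 0.481).

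Psmb5, the chymotrypsin-like subunit, had 15.6, 16.4 and 16.2 CPM in the untreated and 19.4, 22.8, 21.8, 20.9 and 21.1 CPM in the AAV9-LMNA libraries. The groups did not overlap, with a log2 fold change of 0.40 (SE 0.10, edgeR adjusted p = 0.0195). It was 0.37 without AAV9-LMNA replicate 2 and 0.38 without replicate 3, both no longer called (adjusted p = 0.0548 and 0.0511, edgeR), and -0.081 with lengths and GC content corrected (adjusted p = 0.656). The Psmb5 transcript shares 88.4% of its bases with Gm3375 or Gm22920, and more reads were assigned to Gm3375 than to Psmb5 (22.7 to 26.4 CPM in the untreated, 30.3 to 37.6 CPM in the AAV9-LMNA libraries). Psmb5 held 36.4 to 41.6% of the sum of the pair, and its own level is therefore uncertain.

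**Figure D3:**
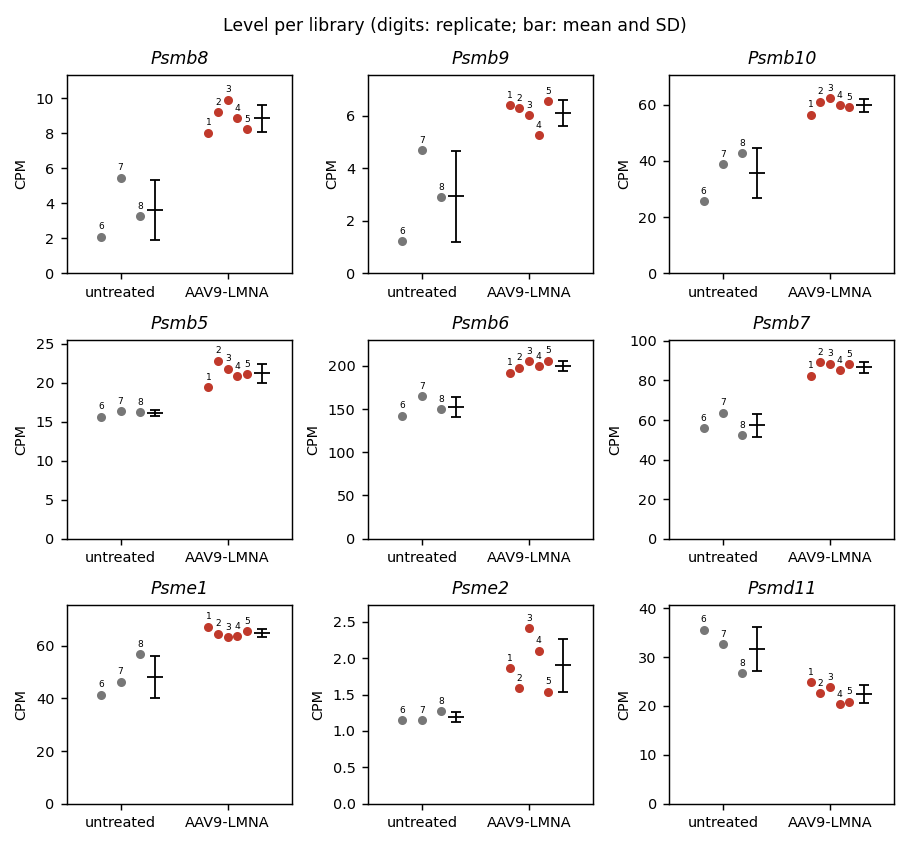
CPM of the 3 immune and the 3 constitutive cutting subunits, of both PA28 genes and of Psmd11, with each library as a point marked by its replicate number and the group mean and SD beside it. The AAV9-LMNA points lie above all untreated points in 8 panels and below them for Psmd11, and for Psmb8 and Psmb9 untreated replicate 7 is nearest to the treated libraries.

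Each immune subunit was then set against the subunit it replaces in the same library, which removes the library scaling. Psmb8 reads per kilobase were 7.45, 18.5 and 11.2% of those of Psmb5 in untreated replicates 6, 7 and 8, and 22.9, 22.3, 25.2, 23.4 and 21.6% in the AAV9-LMNA libraries. The means were 12.4% ± 5.59 (SD, n = 3) and 23.1% ± 1.34 (SD, n = 5), a log2 difference of 1.00 (exact two-sided permutation p = 0.0179, the smallest that 56 splits allow, adjusted p = 0.0536 over 3 ratios). Psmb9 reached 0.519, 1.68 and 1.16% of Psmb6 in the untreated and 1.97, 1.88, 1.74, 1.57 and 1.89% in the AAV9-LMNA libraries. Here untreated replicate 7 lay inside the range of the treated hearts. The log2 difference was 0.85 (exact permutation p = 0.0357, adjusted p = 0.0536). Psmb10 reached 40.9, 53.9 and 72.4% of Psmb7, and 60.6, 60.7, 62.4, 62.0 and 59.3%, with a log2 difference of 0.17 (exact permutation p = 0.464) that lay within the spread of the untreated hearts. None of the 3 ratios passed the threshold after adjustment. A single ratio could not pass it alone, since the smallest p that 56 splits allow then adjusts to 0.0536. The lack of a call for Psmb8 therefore decides nothing. Without untreated replicate 6 the differences for Psmb8 and Psmb9 were 0.68 and 0.37, and that for Psmb10 was -0.034. The Psmb8 ratio also carries the uncertainty of Psmb5.

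**Figure D4:**
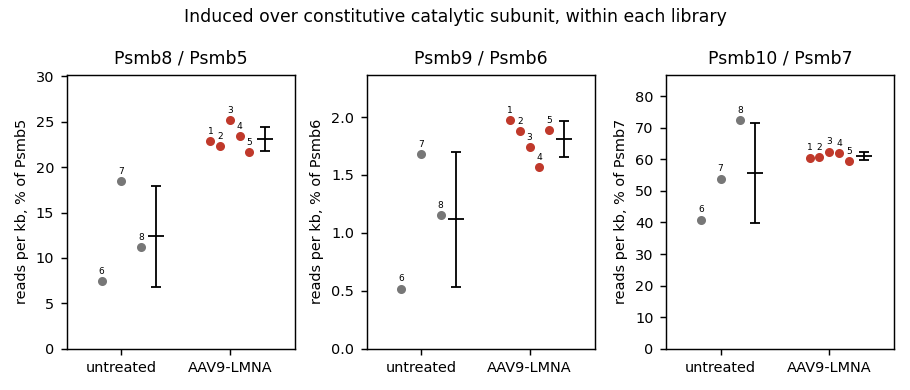
Reads per kilobase of each immune cutting subunit as a percentage of the constitutive subunit it replaces, by library (points with replicate numbers, group mean and SD beside them, axes from 0). The untreated hearts spread from 7.45 to 18.5% for Psmb8 and from 40.9 to 72.4% for Psmb10, while the 5 AAV9-LMNA hearts stay within 21.6 to 25.2% and 59.3 to 62.4%.

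Summed per kilobase, the immune subunits made up 8.24, 11.5 and 12.8% of the 6 cutting subunits in untreated replicates 6, 7 and 8 and 13.3 to 14% in the AAV9-LMNA libraries. Psmb10 carried most of it: its mean went from 27.3 to 45.6 CPM per kilobase, that of Psmb8 from 2.22 to 5.44 and that of Psmb9 from 2.18 to 4.52. Counting ignored strand, and reads on overlaps of genes could not be assigned to either: Gm20496 overlaps 14.7% of the exon bases of Psmb8, Tap1 5.79% of Psmb9 and Nek6 11.8% of Psmb7. In bulk hearts a change in the number of cells that use a gene and a change in RNA per cell cannot be told apart. Markers of macrophages, which are rich in immunoproteasome, moved with these subunits in part. Their summed level was 190, 730 and 314 CPM in untreated replicates 6, 7 and 8 and 591 to 666 CPM in the AAV9-LMNA libraries, with 0 of 10 genes called and none at 0. Lymphocyte markers summed to 1.44 to 6.91 CPM against 5.11 to 11.7 CPM, with 1 of 6 tested genes called. Of 8 endothelial markers 3 rose (2 with the length and GC correction), with sums of 983 to 1599 CPM against 1464 to 1893 CPM. Of 8 heart muscle markers 3 rose (none with the correction). In the fit over all features that is 37.5% of each list, against 18.4% of coding genes. The endothelial and heart muscle medians of log2 fold change were 0.44 and 0.32 in that fit. They were 0.21 and -0.07 with the correction, and 0.36 and 0.49 against untreated replicate 7 alone. None of 7 fibroblast or 6 erythroid markers was called. The part of any cell type in the result was not tested.

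The other genes of class I presentation, a list of 16, gave 4 that rose and none that fell among 15 tested, with a median log2 fold change of 0.48. That is 26.7% of the list, against 18.4% of coding genes. Tap2, of the peptide transporter, rose by 0.58 (edgeR adjusted p = 0.00939), Erap1, which trims peptides, by 0.47 (adjusted p = 0.0121) and Tapbp, which loads them, by 0.77 (adjusted p = 0.0165). Tap1, the neighbour of Psmb9, had 4.35, 14.5 and 9.67 CPM against 14.9 to 19.5 CPM and missed the threshold (0.85, adjusted p = 0.0638, edgeR). With Ensembl genes alone and with the length and GC correction 2 of the 15 rose (13.3%, against 4.49% and 2.34% of coding genes), and without untreated replicates 6 and 8 none rose and 1 fell. Irf1, the remaining gene that rose over all features (0.70, adjusted p = 0.0413, edgeR), was not called in either of the other readings. Ifng, the gene of interferon gamma, is listed at 0 counts in every library. As for Psmg2, overlaps with NONCODE genes were not checked, so this 0 is no measure of its expression.

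In the alpha ring 3 of 7 genes rose (Psma1, Psma2, Psma4) and none fell. Psma4 (chr9:54950790-54958030) had the largest difference, with 31.3, 35.6 and 31.4 CPM in the untreated and 48.9, 49.3, 44.8, 50.8 and 52.9 CPM in the AAV9-LMNA libraries (log2 fold change 0.59, SE 0.10, edgeR adjusted p = 0.00381). It kept its call with Ensembl genes alone (0.40, adjusted p = 0.0197) but not with lengths and GC content corrected (0.18, adjusted p = 0.245, edgeR). Psma3 was lowest, with 10.7, 13.4 and 9.58 CPM against 12.5, 12.5, 12, 12.2 and 12.5 CPM and groups that overlapped (0.14, adjusted p = 0.456). Of the 4 beta subunits that do not cut, Psmb1, Psmb2 and Psmb3 rose. Psmb1 had 67.6, 89.3 and 82.4 CPM against 115, 110, 112, 111 and 121 CPM (0.51, adjusted p = 0.00732, edgeR; 0.32 and 0.0311 with Ensembl genes alone). Psmb4 had 22.2, 22.3 and 18.9 CPM against 24.5, 25.5, 23.3, 24.9 and 25.9 CPM (0.23, adjusted p = 0.114). In all, 9 of 14 core genes rose over all features, 4 with Ensembl genes alone and 0 after the correction, where their median was -0.05. Of all coding genes 18.4%, 4.49% and 2.34% rose in these 3 fits. Reads of Psma5 and Psmb3 may be shared with near-identical copies, which cover 76.5% and 80.7% of their transcripts.

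In the regulatory particle 8 of 17 genes rose and 1 fell (47.1% and 5.88%, against 18.4% and 6.07% of coding genes). With Ensembl genes alone 1 rose (Psmd8) and 1 fell, 5.88% each, near the 4.49% and 8.73% of coding genes. After the length and GC correction none rose and 1 fell. The rising genes were the ATPases Psmc3, Psmc5 and Psmc6, the scaffold Psmd2, and the lid genes Psmd6, Psmd8, Psmd13 and Psmd14, the last the enzyme that cuts ubiquitin chains from the substrate. Psmd8 (chr7:29174188-29180701) had 110, 140 and 125 CPM against 173, 200, 200, 182 and 183 CPM (0.58, SE 0.10, edgeR adjusted p = 0.00439; 0.39 and 0.0162 with Ensembl genes alone). Psmc3 had 194, 212 and 182 CPM against 277, 264, 285, 266 and 265 CPM (0.47, adjusted p = 0.00538, edgeR). Psmd2 had 144, 160 and 116 CPM against 188, 194, 193, 187 and 186 CPM (0.44, adjusted p = 0.0147). Psmc2 and Psmd4, the lowest of the ATPases and of the other base genes, differed by 0.11 and 0.12 (adjusted p = 0.365 and 0.528, edgeR), and their groups overlapped. Psmc2 had 86.9, 91.5 and 78.6 CPM against 96.9, 92.5, 93.1, 90.9 and 88 CPM. Psmd4, a receptor for ubiquitin chains, had 94, 66.1 and 66.1 CPM against 96, 73.1, 83.7, 80.8 and 76.3 CPM, so untreated replicate 6 lay inside the treated range.

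Psmd11 (chr11:80428615-80473248), a lid subunit that braces the particle against the core, went the other way. It had 35.6, 32.6 and 26.7 CPM in untreated replicates 6, 7 and 8 and 24.8, 22.6, 23.8, 20.4 and 20.9 CPM in AAV9-LMNA replicates 1 to 5. Every treated heart lay below every untreated one, on both scales. The mean fell from 31.6 ± 4.54 (SD, n = 3) to 22.5 ± 1.87 CPM (SD, n = 5), a log2 fold change of -0.49 (SE 0.12, edgeR adjusted p = 0.0152). It was -0.70 with Ensembl genes alone (adjusted p = 0.00900, edgeR), -0.77 with the length and GC correction (adjusted p = 0.0111) and -0.52 against untreated replicate 7 alone (adjusted p = 0.0316). With each library left out in turn it ranged from -0.59 to -0.39, with adjusted p from 0.0128 to 0.0493 (edgeR), the last without untreated replicate 6. The other 7 lid genes had log2 fold changes of 0.09 to 0.58. Of its transcript 52.7% has a near-identical copy in A730017L22Rik or Gm14048, and both copies had 0 counts in every library. Those 0 counts do not show how shared reads were handled, so the level of Psmd11 is uncertain to that extent.

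Chaperones guide the building of the complex. Psmg3, a chaperone of the alpha ring, had 1.11, 1.36 and 1.36 CPM against 2.80, 1.93, 1.85, 2.23 and 1.95 CPM and rose by 0.75 (SE 0.24, edgeR adjusted p = 0.0435), a call lost when any 1 library except untreated replicate 7 was left out (0.64 to 0.82 over the 8 fits) and with Ensembl genes alone (0.56, adjusted p = 0.139). Psmg1 rose as well. Psmg4, the partner of Psmg3, had 3.94, 6.52 and 6.81 CPM against 6.73, 5.53, 7.49, 4.85 and 8.11 CPM (0.18, adjusted p = 0.573, edgeR). Of the 3 chaperones of the regulatory particle Psmd5 rose. Psmd10 had 4.51, 8.7 and 6.9 CPM against 9.58, 9.25, 9.82, 10.01 and 10.7 CPM and missed the threshold (0.56, adjusted p = 0.0574, edgeR), and it was 0.81 without untreated replicate 7 (adjusted p = 0.00821), 0.35 without replicate 6 (adjusted p = 0.139) and 0.19 without replicates 6 and 8 (adjusted p = 0.556). Psmd9 had 17.9, 17.7 and 21.4 CPM against 23.6, 21.9, 24, 22.8 and 22.8 CPM, a difference of 0.28 (adjusted p = 0.0767, edgeR; 0.38 and 0.0445 without untreated replicate 8), and 25.5% of its exons overlap another gene.

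The activators outside the immune set and the inhibitor showed no call. Psme3, the nuclear activator, had 53.5, 61 and 50.8 CPM against 65.1, 61.7, 72.9, 61.9 and 62.9 CPM (0.24, adjusted p = 0.0987, edgeR; 0.33 and 0.0262 without untreated replicate 7). Psmf1, an inhibitor of the core in the test tube, had 10.5, 9.0 and 13.2 CPM against 12.2, 9.13, 9.3, 10.1 and 9.28 CPM (-0.12, adjusted p = 0.596). The testis gene Psma8 had 0.656, 0.298 and 0.545 CPM against 0.42, 0.568, 0.569, 0.816 and 0.362 CPM (0.13, adjusted p = 0.822, edgeR). Psmc3ip varied widely within the treated group. It had 12.2, 12.6 and 12.8 CPM in the untreated and 2.9, 8.56, 2.23, 7.94 and 15.8 CPM in the AAV9-LMNA libraries (-0.74, SE 0.55, adjusted p = 0.332, edgeR). Exons of Mlx overlap 21.2% of it.

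Per kilobase the members of one machine stood at unequal levels. In the untreated hearts Psmb6 was highest at 191 CPM per kilobase, followed by Psmc3 at 119.7, Psma7 at 102 and Psmb2 at 96.4, while Psma3 and Psma5 lay at 3.94 and 2.93. The ATPases Psmc1, Psmc2, Psmc4, Psmc5 and Psmc6 lay within 45.7 to 50.2 CPM per kilobase, with Psmc3 well above them. These levels rest on 1 transcript per gene, and those of Psma3, Psma5, Psmb3, Psmb5 and Psmc1 on how reads of their copies were assigned. Reads that overlap more than 1 feature were not counted, and overlaps with NONCODE genes were not checked. A low value may therefore in part be a loss of reads.

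Length went with the size of the change. Of the 48 members 44 were shorter than the median coding gene. Across members, log2 fold change and transcript length had a Spearman correlation of -0.40, close to the -0.36 over 13785 coding genes of the same libraries, and of -0.04 and 0.03 after the correction. Genes are not independent replicates, so no p is given. The immune cutting subunits, at 1311 to 1628 bases, lay above all 6 core genes of 1160 to 1758 bases both with and without the correction.

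**Figure D5:**
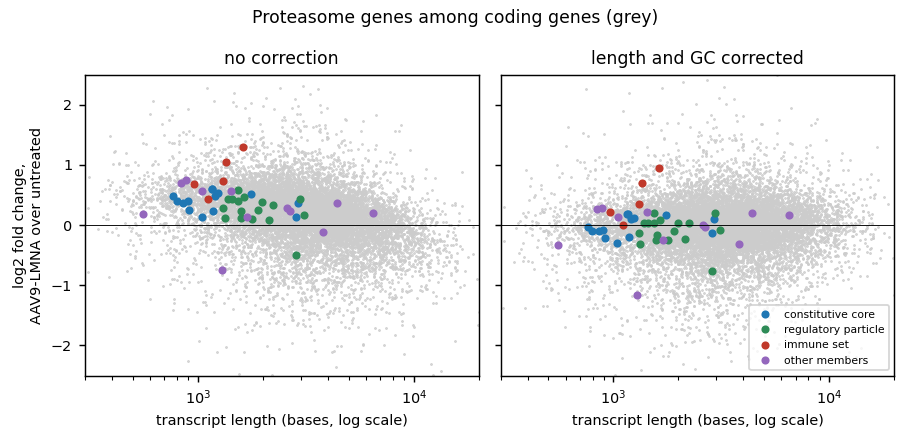
Log2 fold change (AAV9-LMNA over untreated) against transcript length in bases on a log axis, without (left) and with (right) the length and GC correction, for the members in color over all coding genes tested in grey. The members sit at the short end, with a median of 1435 bases, and move from a median of 0.37 to 0.02. Among the members Psmb8 is highest in both panels, and Psmd11 is lowest after Psmc3ip, which is no subunit.

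Proteins that work with the proteasome were taken as further lists. Of 17 accessory factors 4 rose and 1 fell, shares of 23.5% and 5.88% near those of coding genes in that fit (18.4% and 6.07%). Rad23b, which ferries ubiquitinated proteins, rose by 0.61 (edgeR adjusted p = 0.00381), and Pomp, which matures the core, by 0.53 (adjusted p = 0.00668). Ubqln2, another ferry protein, fell: it had 35.9, 41.1 and 39.6 CPM in the untreated and 17.7, 16.7, 16.9, 17.5 and 13.2 CPM in the AAV9-LMNA libraries (-1.25, SE 0.12, adjusted p = 0.000246, edgeR). Its value was -1.44 with Ensembl genes alone and -1.46 with the length and GC correction (adjusted p = 0.000109 and 0.000168, edgeR). After that correction it was the only accessory factor called. Of 14 genes around Nfe2l1, the factor that raises proteasome genes when the proteasome is impaired, only Vcp rose (0.38, adjusted p = 0.0136, edgeR), and with Ensembl genes alone none did. The share over all features was 7.14%, against 18.4% of coding genes. Without untreated replicates 6 and 8 the 14 genes ran from -1.07 (Maff) to 0.54 (Fbxw7), with a median of 0.015. None of 6 genes for ubiquitin and its activating enzymes was called, with a median of 0.15.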

How the data were processed

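Values were deposited by the authors as raw counts of reads per gene, 1 table per library, not normalized. The submitters' processing notes name TopHat2, HTSeq, limma and edgeR, without versions, and GRCm38 (mm10). Per the file names, Ensembl and NONCODE version 5 genes were counted together without strand, so the strand of a read was not used to tell overlapping or antisense genes apart. Reads that overlap more than 1 feature stand in a summary line as ambiguous and count for neither (21.0 to 26.4% of reads on features, outside or ambiguous). Summary lines were left out.

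Gene models, coordinates (GRCm38) and transcript lengths came from GENCODE M21, 1 principal transcript per gene. All features past filterByExpr (26717) were fitted with edgeR 4.0.16 in R 4.3.3: TMM scaling, robust quasi-likelihood test, 1 term for the group, Benjamini-Hochberg adjustment over all features. The standard error is the log2 fold change divided by the square root of F. CPM used TMM library sizes. Ratios were taken on counts per kilobase with 0.5 counts added, and group means of the log2 ratio were compared by exact permutation over 56 splits. Near-identical copies were found with blastn 2.17.0 among GENCODE transcripts (97% identity, 75 bases or more). Whether every library came from its own animal is not stated in the labels, and the p-values therefore cover the spread among these libraries only, part of which may be technical.

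Alternatives were RLE, DESeq2 1.42.0, limma-voom (limma 3.58.1), 2 other filters, Ensembl genes alone, a loess correction (span 0.5) of each library's length and GC trends over coding genes, and libraries left out. With untreated replicate 7 alone, it is assumed to vary like the other group. On simulated counts for this comparison (26717 features), edgeR recovered 72.7% of 66 genes changed 4-fold, 35.8% of 67 changed 2-fold and 1.49% of 67 changed 1.5-fold. No other feature was changed there, and 78 features were called, against 2843 rising and 4015 falling in the data. The adjusted threshold was therefore stricter in the simulation, and these shares do not give the recovery of the fit reported here.

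Members, lists and roles were chosen with earlier results of these data known. Values in every library are given for the immune and constitutive cutting subunits, each member called lower, and the members with the highest and lowest log2 fold change of each role; of other lists, called members with the smallest p. Tap1, the copies, the members named only as rising, the promoters shown, the levels per kilobase, and the length-corrected fits of Psmb8 and Psmd11 with libraries left out were chosen after values were seen.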

Additional observations from a re-analysis of the deposited data

Results flagged for a closer look

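Psmd6, a lid subunit, had 71.5 CPM in AAV9-LMNA replicate 5 against 63.4 to 65.2 CPM in the other 4 libraries of that group, a gap large for the group's range by Dixon's test at 95%. It was 1 of 51 values examined this way, and chance flags about 1 in 20.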

How the results depend on the processing

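RLE, DESeq2, limma-voom and both other filters left 24 to 29 members rising and 1 falling (25 and 1 reported). Of coding genes 18.4% rose in the reported fit, 4.49% with Ensembl genes alone and 2.34% with the length and GC correction. That share is not given here for the other alternatives or with 1 library left out. Whether members rose more often than coding genes in those fits is therefore not shown. Ensembl genes alone left 8 rising (core 4, regulatory particle 1, immune 2), the length and GC correction 1 (core 0, regulatory particle 0, immune 1), and leaving out untreated replicates 6 and 8 left 6 (core 2, regulatory particle 2, immune 2). The correction turned Psmb5 (-0.081), Psmb6 (-0.10) and Psme1 (-0.0068) below 0. The fall of Psmd11 was called in every fit run. With 1 library left out, 17 to 27 members rose (core 6 to 9, regulatory particle 6 to 9, immune 3 to 4), and 1 fell. The log2 difference of the ratio to the replaced subunit then ran from 0.68 to 1.33 for Psmb8, 0.37 to 1.22 for Psmb9 and -0.034 to 0.38 for Psmb10. Without AAV9-LMNA replicate 4 those of Psmb8 (0.99) and Psmb9 (0.90) passed the threshold (exact permutation, adjusted p = 0.0429), and without untreated replicate 6 that of Psmb10 was -0.034. The causes were not tested. No paired analysis was possible because the groups share no replicate numbers. A member without a call is not shown to be equal between the groups.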
